A study of Mus musculus with 4 samples.

Results

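The glycosylation genes described here encode the enzymes that start, lengthen, branch and cap the sugar chains of mucins and other glycoproteins and of glycolipids. They were chosen by name: a probe set had to carry 1 gene symbol in the platform annotation, and the symbol had to begin with Galnt, B3gnt, B4galt, B3galt, Gcnt, St3gal, St6gal, Chst or Fut followed by a digit, or be C1galt1 or C1galt1c1. This gave 73 genes with 146 probe sets, of 18193 genes named by a probe set of their own, and where a gene had several, the one with the greatest mean log2 signal across the 4 arrays stands for it. Fut4-ps1, a pseudogene of Fut4, meets the rule and is among the 73. Expression measurements were taken from mouse intestinal crypts cut out of tissue by laser, with 2 arrays from animals carrying a tamoxifen-induced deletion of beta-catenin and 2 arrays from control animals, all at day 2. The messenger RNA was amplified in 2 rounds, and the deposited values are MAS5 signal intensities. The labels name no strain, age, Cre driver, deleted exon or intestinal segment, and do not say whether the controls received tamoxifen or whether the arrays of a group came from separate mice, so a p-value here reflects array-to-array spread alone, part or all of which may be technical.

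Mucin-type chains begin in the Golgi, where a Galnt enzyme links N-acetylgalactosamine to serine or threonine, and C1galt1, the core 1 galactosyltransferase, with its chaperone C1galt1c1 (Cosmc), adds galactose. Gcnt enzymes then branch the chain, B3gnt, B3galt and B4galt enzymes lengthen it with alternating N-acetylglucosamine and galactose, and sialyl-, fucosyl- and sulphotransferases cap it. In the intestine these chains make up most of the mass of the mucins released by goblet cells. Mucins of the brush border coat carry them too. Several genes that meet the rule act elsewhere: Fut8 adds core fucose to N-linked chains, B4galt5, B3gnt5, B3galt4 and St3gal5 build glycolipids, and Chst11, Chst15, B4galt7 and B3galt6 make chondroitin sulphate or the sugar linker of proteoglycans.

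Upstream sequence is shown for 3 of the genes, the one with the greatest positive difference between mutant and control (B4galt5), the only tested one with both mutant arrays below both control arrays (Galnt7), and the only one with a TCF/LEF letter match in this stretch (Fut8). TCF/LEF factors are the DNA-binding partners of beta-catenin. Each sequence is the 250 bases before an annotated start in RefSeq, build GRCm38.p6, read 5′ to 3′ on the strand of the gene. B4galt5 lies on the minus strand at chr2:167349179-167349428, Galnt7 on the minus strand at chr8:57653056-57653305 and the Fut8 window on the plus strand at chr12:77409891-77410140. Capitals mark CG dinucleotides in B4galt5 and Galnt7, and the TCF/LEF match in Fut8.
B4galt5: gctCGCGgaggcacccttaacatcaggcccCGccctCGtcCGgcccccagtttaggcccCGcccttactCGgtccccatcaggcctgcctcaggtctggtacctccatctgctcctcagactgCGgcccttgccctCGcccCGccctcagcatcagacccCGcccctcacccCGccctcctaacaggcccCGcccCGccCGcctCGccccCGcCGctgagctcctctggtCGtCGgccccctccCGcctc
Galnt7: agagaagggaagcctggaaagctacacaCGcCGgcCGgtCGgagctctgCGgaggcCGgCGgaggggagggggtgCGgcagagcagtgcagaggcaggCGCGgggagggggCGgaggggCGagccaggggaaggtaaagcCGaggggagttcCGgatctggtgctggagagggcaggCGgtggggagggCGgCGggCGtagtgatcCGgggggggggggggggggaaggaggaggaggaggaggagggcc
Fut8: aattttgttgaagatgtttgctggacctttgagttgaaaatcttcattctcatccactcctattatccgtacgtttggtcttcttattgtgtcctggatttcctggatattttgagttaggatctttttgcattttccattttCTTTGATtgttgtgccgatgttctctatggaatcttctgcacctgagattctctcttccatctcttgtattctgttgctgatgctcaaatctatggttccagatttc

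The B4galt5 window holds 21 CG dinucleotides with a GC content of 73.2%, and the Galnt7 window holds 19 with 73.6%. RefSeq windows matched 56 of the 73 genes, 76 windows in all, with a median of 14 CG dinucleotides and a GC content of 59.6%, beside medians of 6 and 52.4% over all 32851 windows, which include those of non-coding genes. The letters CTTTGAT or CTTTGAA, searched on both strands as a TCF/LEF motif, occur in 1 of the 76 windows (1.32%) and in 7.48% of all windows. That match starts 107 bases before 1 of 4 annotated Fut8 starts, in a window with 3 CG dinucleotides and a GC content of 37.6%. The letters TATAAA, on both strands, occur in 1 of the 76 windows (1.32%, Gcnt1) and in 12.37% of all windows. A match is a run of letters and not a binding site.

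As a check of the deletion, Ctnnb1, the beta-catenin gene, was read first. Its brighter probe set (1420811_a_at) had log2 signals of 12.02 and 11.85 in mutant crypts and 12.43 and 12.56 in control crypts, a difference of -0.56 (SE 0.22) that did not pass the limma test (adjusted p = 0.786); since the deleted exons are not given, this probe set may lie outside them and is then no check of the labels. Of the other Ctnnb1 probe sets, the one above the filter (1450008_a_at) went the other way, with 5.95 and 5.71 in mutants and 4.81 and 6.09 in controls, overlapping groups and a difference of 0.38 (SE 0.50, adjusted p = 0.922). The Ctnnb1 signal thus does not give 1 direction over its probe sets. All log2 values are of signal + 5 after quantile normalization, a scale on which the change of dim probe sets is understated, and all differences are mutant minus control. The array of mutant replicate 1 stands apart: the 17 measured of 27 listed pancreatic acinar genes summed to a deposited signal of 117215.7 there and 1777.2 in mutant replicate 2, against 2671.8 and 2766 in the controls. Summed T lymphocyte markers (12 of 12 measured, 6 above the filter) were 4658.6 and 744.5 in the mutants and 2275.3 and 781.2 in the controls. For the Gapdh control probe sets, 5' signal over 3' signal, which falls as amplified RNA gets shorter, was 0.104 and 0.0267 in mutants and 0.116 and 0.0582 in controls. Their part in the results below was not tested, and the main counts are given with and without mutant replicate 1. All 15 measured genes of the crypt epithelium list, of 16 listed, lay above the filter described next. Counts over them, and the values of those with both mutants below both controls, are given after the goblet cell genes.

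Of the 73 genes, 44 lay at or above the median of mean log2 signal over all probe sets and were tested, and 29 lay below it. None of the 44 passed (limma, Benjamini-Hochberg over 22519 probe sets, where 0% were called), and their adjusted p ranged from 0.767 to 0.995. At an unadjusted p under 0.05 there were 2, B4galt5 and B3gnt3, both higher, beside 3.32% higher and 3.62% lower among all 11395 genes tested. In 14 of the 44 (31.8%) both mutant arrays lay above both control arrays, where 18.9% of all genes did so. In 1 of the 44 (2.27%) both mutant arrays lay below both control arrays, where 19.2% of all genes did so. The median difference over the 44 was 0.19, with 31 positive and 13 negative, beside a median of 0.01 and 50.7% positive over all genes, and 21 of the 44 lay within 0.25 of 0. In bulk crypts, more cells of a type cannot be told apart from more RNA per cell.

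Without mutant replicate 1, 42 of the genes were above the filter, and mutant replicate 2 lay above both controls in 20 of them (33.8% of all genes) and below both in 10 (33.9% of all genes). The median difference was then 0.15. Leaving out mutant replicate 2 instead gave 25 above and 3 below, of 43, beside 34.2% and 33.3% of all genes. Leaving out control replicate 1 gave 25 above and 6 below, of 44, beside 32% and 37.1% of all genes, and leaving out control replicate 2 gave 20 above and 9 below, of 47, beside 38.6% and 33%. The count of lower genes thus moved from 3 without mutant replicate 2 to 10 without mutant replicate 1. With no filter, all 73 genes gave 17 higher and 4 lower with groups that did not overlap, beside 18% and 17.8% of all genes. A difference of at least 2-fold together with separate groups was found in 2 of the 44 that were higher (2.56% of all genes) and 0 that were lower (2.35% of all genes).

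**Figure D1:**
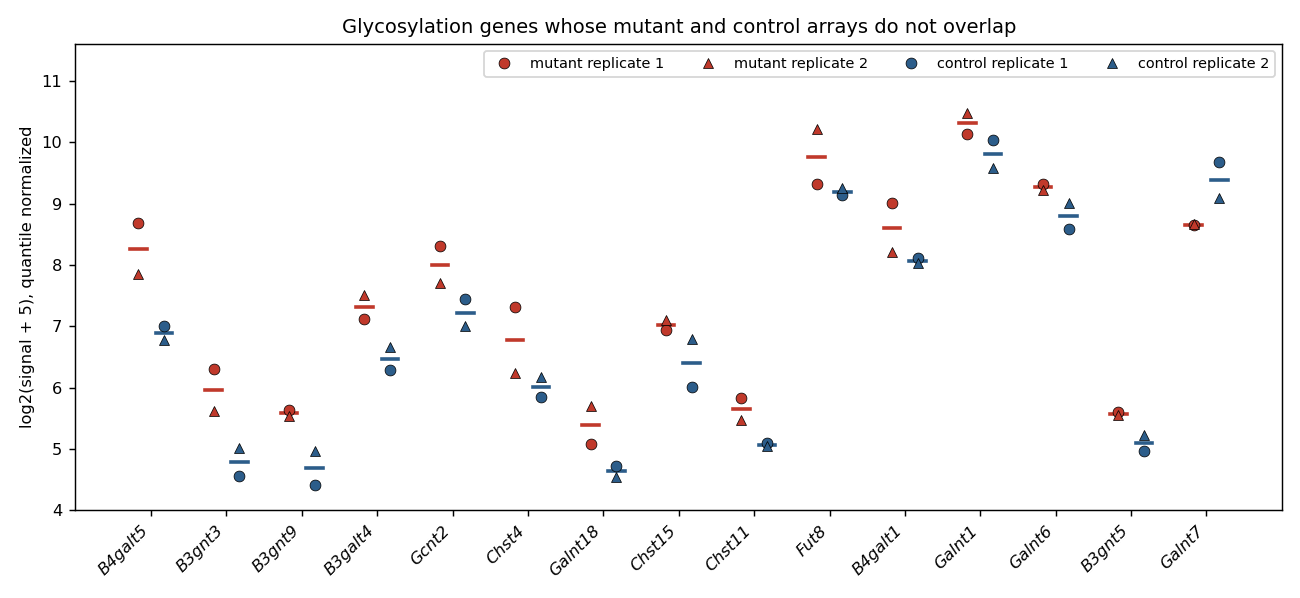
Log2(signal + 5) after quantile normalization (vertical axis) for the 15 tested glycosylation genes whose groups do not overlap, with mutant arrays in red left of control arrays in blue. Circles are replicate 1, triangles replicate 2 and bars group means (n = 2); 14 genes have both mutant arrays above both controls and Galnt7 has both below. Heights are not comparable between genes.

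Among the enzymes that start the chain, 12 of 16 Galnt genes were tested, 6 were positive and 6 negative, and the median difference was 0.01. With separate groups, 3 were higher (25%) and 1 was lower (8.33%), beside 18.9% and 19.2% of all genes. Galnt7, which prefers peptides that already carry N-acetylgalactosamine, had log2 signals of 8.64 and 8.67 in mutant crypts and 9.68 and 9.09 in control crypts. Both mutant values were lower than either control, with a gap of -0.42 between the groups, and close to each other. The difference was -0.73 (SE 0.35, 1.66-fold lower, adjusted p = 0.788), and its 2 other probe sets above the filter stood at -0.33 (SE 0.40) and 0.01 (SE 0.39).

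Galnt1, a broadly expressed initiating enzyme, had 10.13 and 10.48 in mutants and 10.03 and 9.58 in controls, a difference of 0.50 (SE 0.32, adjusted p = 0.829). The lower mutant array lay 0.10 above the higher control. Galnt6, another initiating enzyme, had 9.32 and 9.22 in mutants and 8.58 and 9.01 in controls, a difference of 0.48 (SE 0.33, adjusted p = 0.853). Its other probe set above the filter (1446657_at) also had both mutants above both controls, with a difference of 0.97 (SE 0.38, adjusted p = 0.786). Galnt18 had 5.08 and 5.69 in mutants and 4.73 and 4.54 in controls (difference 0.75, SE 0.46, adjusted p = 0.825).

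The groups of the other 8 tested Galnt genes overlapped. Galnt4 had 9.98 and 9.74 in mutants and 9.93 and 9.93 in controls, Galnt3 had 7.95 and 7.06 against 7.76 and 7.67 in controls, and Galnt12 had 7.62 and 8.03 against 7.54 and 8.20 in controls. Their differences were -0.07 (SE 0.30), -0.21 (SE 0.40) and -0.05 (SE 0.39), each smaller than its error. The mutant arrays of Galnt15 stood at 4.11 and 6.39, against 4.04 and 4.92 in controls, so that its difference of 0.77 (SE 0.74) became 1.85 without mutant replicate 1.

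Of the genes that set the core, 4 of 5 were tested. In none were the groups separate, beside 18.9% higher and 19.2% lower over all genes. C1galt1 had 8.65 and 9.25 in mutants and 9.06 and 8.635 in controls (difference 0.10, SE 0.37, adjusted p = 0.976). Its chaperone C1galt1c1 had 9.61 and 9.64 in mutants and 9.83 and 9.48 in controls (difference -0.03, SE 0.31, adjusted p = 0.992). For C1galt1 the other probe sets stood differently. The one above the filter (1450745_at) had both mutants above both controls, with 7.86 and 7.29 in mutants and 7.24 and 7.15 in controls (difference 0.38, SE 0.37, adjusted p = 0.888). One under the filter (1422772_at) had 5.23 and 4.32 in mutants and 2.87 and 2.74 in controls and was not tested. Gcnt1, a core 2 branching enzyme, had 5.53 and 4.81 in mutants and 4.97 and 4.14 in controls (difference 0.62, SE 0.52, adjusted p = 0.87). B3gnt6, the core 3 enzyme, lay under the filter with 3.50 and 4.63 in mutants and 4.21 and 3.64 in controls.

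Gcnt3, the core 2 and core 4 branching enzyme of mucus-secreting tissue, had 3 probe sets above the filter with unequal differences. The probe set with the highest mean (1440409_at) had 10.43 and 10.005 in mutants and 10.17 and 9.16 in controls, with overlapping groups and a difference of 0.56 (SE 0.40, adjusted p = 0.854). A further one (1430963_at) had 7.42 and 6.99 in mutants and 5.38 and 5.15 in controls, a difference of 1.94 (SE 0.38, unadjusted p = 0.000746, adjusted p = 0.767). The last (1424901_at) had 6.52 and 5.78 in mutants and 4.90 and 4.90 in controls, a difference of 1.25 (SE 0.43, adjusted p = 0.767). All 3 were positive, and the 2 further ones, which the rule does not pick, had mutant arrays above both controls.

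**Figure D2:**
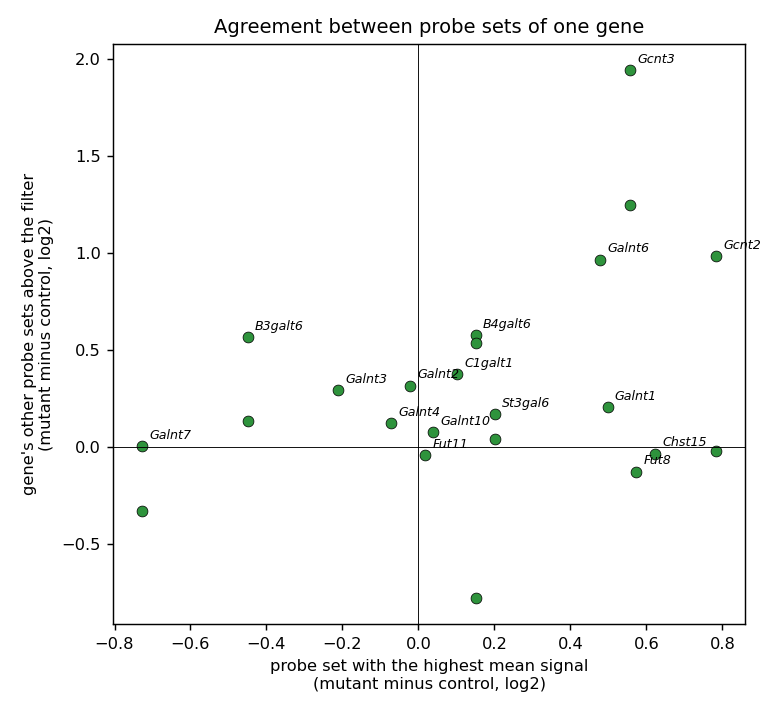
Mutant minus control (log2) of the probe set that represents each gene (horizontal axis) against that of the gene's other probe sets above the filter (vertical axis), 23 points for 16 genes. Of the 23, 11 have the opposite sign, while Gcnt3, Galnt6 and 1 of the 2 Gcnt2 points lie near or above 1 with a positive partner.

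Across the genes, 16 of the 44 had a further probe set above the filter, 23 in all, and 11 of the 23 had the opposite sign to the one that represents the gene. For the 14 higher genes there were 6 such probe sets in 5 genes, 3 of them with the opposite sign. These were a second probe set each of Chst15 (-0.03, SE 0.42), Fut8 (-0.13, SE 0.44) and Gcnt2 (-0.02, SE 1.15). Under the filter, where no test was made, further probe sets of B3gnt5 (1420993_at, -0.73) and Fut8 (1443656_at, -0.64) had both mutants below both controls. That of B4galt5 (1421967_at) stood at -0.43 with overlapping groups. Those of Galnt6 and Chst11 stood at 0.06 and 0.19, and those of Gcnt2 had both signs.

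Enzymes that lengthen and branch the chain held 7 of the 14 higher genes. Of 21 genes 13 were tested, 10 were positive and 3 negative, with a median difference of 0.47. The groups were separate in 7 (53.8%), all higher, beside 18.9% higher and 19.2% lower of all genes. Of these 7, B4galt5, B3galt4 and B3gnt5 build glycolipids. B4galt5, a beta-1,4-galactosyltransferase that makes lactosylceramide, had 8.68 and 7.85 in mutants and 7.01 and 6.78 in controls. The groups lay 0.84 apart, and mutant replicate 1 was the higher one. The difference of 1.37 (SE 0.40, 2.59-fold, adjusted p = 0.767) had the lowest p of the 44 genes and was 0.94 without mutant replicate 1.

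B3gnt3, which lengthens core 1 chains, had 6.30 and 5.62 in mutants and 4.55 and 5.01 in controls. Again both mutants were higher, and replicate 1 more so. Its difference was 1.18 (SE 0.45, 2.26-fold, adjusted p = 0.786), or 0.81 without mutant replicate 1. B3galt4, the galactosyltransferase of GM1 ganglioside synthesis, had 7.12 and 7.51 in mutants and 6.29 and 6.66 in controls, and here mutant replicate 2 was the higher array. The difference was 0.84 (SE 0.37, adjusted p = 0.788), and 1.01 without mutant replicate 1.

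Gcnt2, which makes I branches, had 8.30 and 7.71 in mutants and 7.44 and 6.9999 in controls (difference 0.78, SE 0.39, adjusted p = 0.788). Of its 2 other probe sets above the filter, 1 had both mutants above both controls, at 0.98 (SE 0.40). B3gnt9 had 5.63 and 5.54 in mutants and 4.42 and 4.96 in controls (difference 0.90, SE 0.44, adjusted p = 0.788). B4galt1, which builds N-acetyllactosamine, had 9.01 and 8.21 in mutants and 8.12 and 8.03 in controls (difference 0.54, SE 0.39, adjusted p = 0.854). Without mutant replicate 1 it stood at 0.13, the lowest of the 14 higher genes. B3gnt5, which starts lacto-series glycolipids, had 5.60 and 5.55 in mutants and 4.96 and 5.23 in controls (difference 0.47, SE 0.41, adjusted p = 0.87).

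The remaining 6 tested genes of this step had overlapping groups. B3gnt2, the main polylactosamine enzyme, stood at -0.38 (SE 0.41), and B4galt3, B4galt6 and B4galt7 at 0.04, 0.15 and 0.23. B3galt6 stood at -0.45 (SE 0.50), and its 2 other probe sets above the filter at 0.57 (SE 0.51) and 0.13 (SE 0.53). B3galt5, which makes type 1 chains, had 6.84 and 3.94 in mutants and 5.29 and 5.58 in controls, so that the mutant arrays lay on either side of the controls. B3gnt7 (5.001 and 3.94 in mutants, 5.81 and 4.15 in controls) and B4galt4 (3.15 and 3.95 in mutants, 2.82 and 4.47 in controls) lay under the filter.

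**Figure D3:**
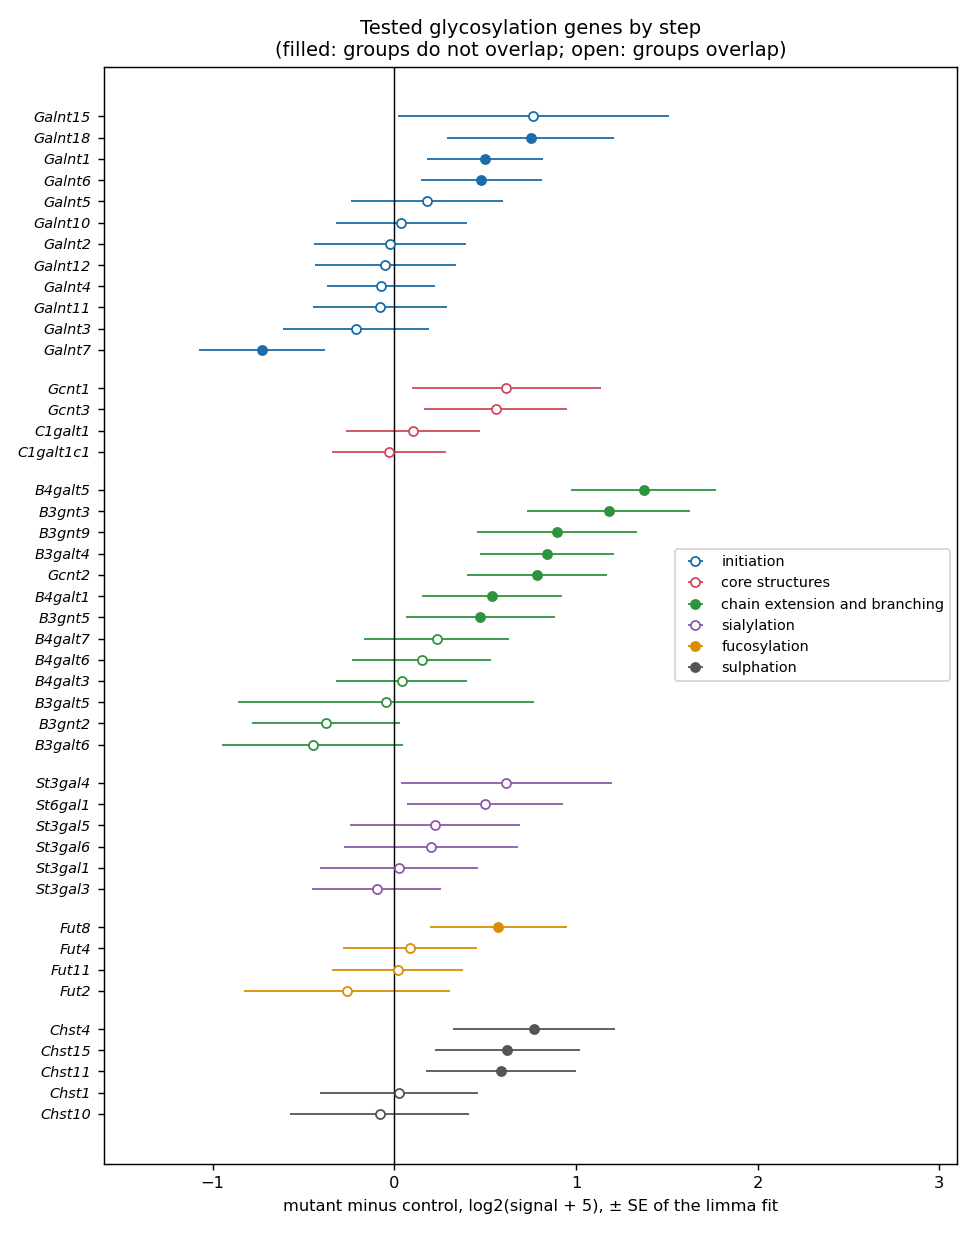
Mutant minus control on the log2(signal + 5) scale (horizontal axis) with the SE of the limma fit for the 44 tested genes, grouped by step. Filled points, 15 in all, have groups that do not overlap. They include 7 of 13 genes of chain extension and branching and 0 of 6 sialyltransferases, and the classes are small. Over all genes tested, 18.9% were higher and 19.2% lower in this way. None of the 44 passed the test.

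Sialyltransferases, which end chains with sialic acid, were tested for 6 of 8 genes. The median difference was 0.21, and 5 were positive and 1 negative. In 0 of the 6 were the groups separate, beside 18.9% higher and 19.2% lower of all genes. St6gal1, which adds alpha-2,6 sialic acid to N-linked chains, had 9.49 and 10.14 in mutants and 8.79 and 9.85 in controls (difference 0.50, SE 0.43, adjusted p = 0.87). St3gal4 had 7.64 and 6.49 in mutants and 7.21 and 5.68 in controls (difference 0.62, SE 0.58, adjusted p = 0.885). In St6gal1 replicate 2 was the higher array of each group, in St3gal4 replicate 1, and the gap within each group exceeded the difference between the groups in both genes. St3gal6 had 8.85 and 8.70 in mutants and 9.29 and 7.86 in controls (difference 0.20, SE 0.48). St3gal5, the GM3 synthase, had 5.76 and 4.88 in mutants and 5.07 and 5.11 in controls (difference 0.22, SE 0.47, adjusted p = 0.957). St3gal1, which caps core 1, had 4.97 and 5.06 in mutants and 5.09 and 4.88 in controls (difference 0.03, SE 0.44), and St3gal3 stood at -0.10 (SE 0.36).

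Of 9 fucosyltransferase genes, 4 were tested. Fut8 had 9.31 and 10.22 in mutants and 9.13 and 9.26 in controls, a difference of 0.57 (SE 0.38, adjusted p = 0.834). Mutant replicate 1 was only 0.06 above the higher control, so the difference was 1.03 without mutant replicate 1 and 0.12 without mutant replicate 2. Fut2, the alpha-1,2-fucosyltransferase of intestinal epithelium, had 5.85 and 4.33 in mutants and 5.13 and 5.57 in controls (difference -0.26, SE 0.57, adjusted p = 0.96), with the mutants on either side of the controls. Fut4, a Lewis x enzyme, had 9.30 and 9.04 in mutants and 9.46 and 8.71 in controls (difference 0.09, SE 0.37, adjusted p = 0.981). Fut11 stood at 0.02 (SE 0.36), and Fut9, another Lewis x enzyme, lay under the filter.

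Of 14 sulphotransferase genes, 5 were tested. In 3 of the 5 (60%) the groups were separate, all higher, beside 18.9% higher among all genes, but 5 genes make a small class. Chst4, which sulphates N-acetylglucosamine, had 7.32 and 6.23 in mutants and 5.85 and 6.17 in controls. Mutant replicate 2 was 0.07 above the higher control, and the difference of 0.77 (SE 0.45, adjusted p = 0.817) was 0.22 without mutant replicate 1. The chondroitin sulphotransferase genes Chst15 and Chst11 differed by 0.62 (SE 0.40, adjusted p = 0.829) and 0.59 (SE 0.41, adjusted p = 0.853). Chst11 had 5.84 and 5.48 in mutants and 5.09 and 5.04 in controls, while Chst15 had 6.94 and 7.10 in mutants and 6.01 and 6.79 in controls. Chst1 and Chst10 stood at 0.03 (SE 0.44) and -0.08 (SE 0.49). Chst5, a sulphotransferase of intestinal keratan and mucin chains, lay under the filter with 4.76 and 3.22 in mutants and 4.35 and 3.46 in controls.

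**Figure D4:**
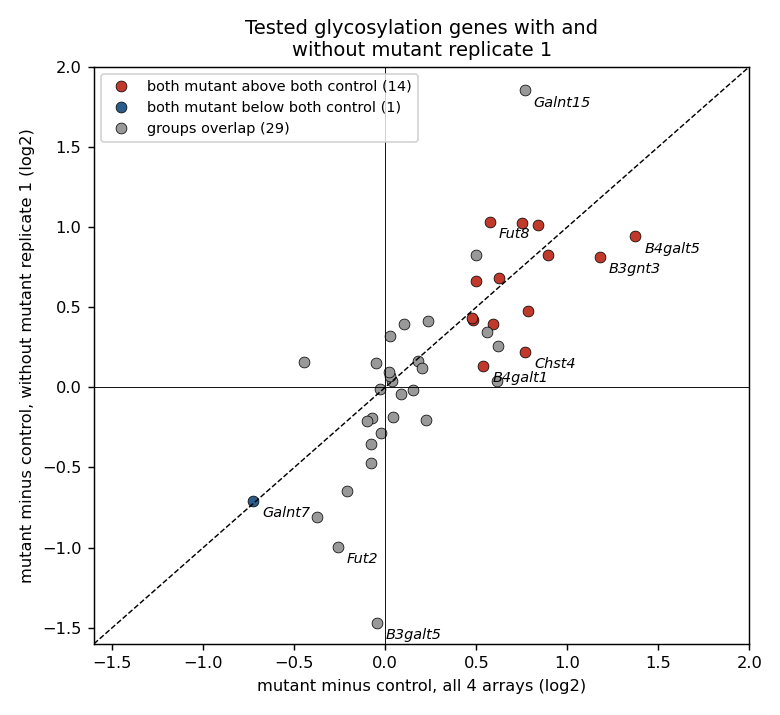
Mutant minus control (log2) with all 4 arrays (horizontal axis) and without mutant replicate 1 (vertical axis) for the 44 tested genes; the dashed line marks equal values. Without that array, the 14 red genes run from 0.13 (B4galt1) to 1.03 (Fut8) and Galnt7 lies at -0.71. B3galt5 and Galnt15 move furthest from the line.

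The 14 higher genes ranged from 0.13 to 1.03 without mutant replicate 1, which has to be positive since mutant replicate 2 was above both controls in each. Mutant replicate 1, the array with pancreatic transcripts, was the higher of the mutants in 9 of the 14. The share over all genes was not counted, so this number has no background beside it. Galnt7 differed by -0.71 without mutant replicate 1 and by -0.72 without mutant replicate 2. Its mutant arrays were close to each other (8.64 and 8.67), so leaving out either could move it little. Its control arrays lay further apart (9.68 and 9.09). Set against the lower control array alone, the Galnt7 difference shrank to -0.44, and against the higher one alone it grew to -1.03.

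Of the 29 genes under the filter, whose mean log2 signals lay between 2.58 and 4.73, 3 had both mutants above both controls (B4galt2, Gcnt7 and St3gal2) and 3 had both below (Galnt14, B3galt2 and Fut10), beside 16.5% and 15.6% of all genes under the filter. Fut10 had 3.29 and 3.92 in mutants and 5.54 and 4.66 in controls, and B3galt2 had 2.39 and 2.57 against 3.40 and 3.55 in controls. Another B3galt2 probe set (1423084_at) went the other way, with 3.16 and 3.24 in mutants and 2.65 and 2.54 in controls. MAS5 values this low are noisy, and no test was made.

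Genes around the same pathway, taken from lists that were drawn up with earlier results known, are given for comparison. Among 27 tested transferases outside the rule, groups were separate in 6 that were higher (22.2%) and 7 that were lower (25.9%). All genes stood near these shares, at 18.9% and 19.2%, and the median difference of the 27 was 0.05. Pofut1, the O-fucosyltransferase of Notch receptors, stood at -0.90 (SE 0.35, adjusted p = 0.786), the O-mannosyltransferase gene Pomt1 at -0.90 (SE 0.38, adjusted p = 0.786) and St6galnac1, which makes the sialyl-Tn structure of mucins, at 0.77 (SE 0.38, adjusted p = 0.791). St6galnac1 had 5.99 and 6.17 in mutants and 5.37 and 5.24 in controls, with separate groups, and stood at 0.83 without mutant replicate 1. Of 33 tested genes for making and transporting sugar and sulphate donors, 8 were higher (24.2%) and 5 lower (15.2%) with separate groups. These shares too were near those of all genes, and the median difference was 0.13. The nucleotide sugar transporter genes Slc35d1 and Slc35c2 stood at 0.90 (SE 0.37) and 0.79 (SE 0.39) and the sialic acid phosphatase gene Nanp at -0.74 (SE 0.35).

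Of the mucin genes, whose proteins carry these chains, 4 were tested and none passed. Muc3, a membrane mucin of the brush border, had 12.62 and 12.08 in mutants and 10.75 and 10.61 in controls (difference 1.67, SE 0.27, adjusted p = 0.73). The gel-forming mucin gene Muc2 stood at 1.04 (SE 0.27, adjusted p = 0.767), and Muc13 at 0.31 (SE 0.22). Muc4 was negative, at -0.08 (SE 0.33), with overlapping groups. Another 8 mucin genes lay under the filter and were not tested. Of 21 tested goblet cell genes, 17 were positive and 4 negative with a median of 0.56. Both mutants lay above both controls in 11 (52.4%) and below both in 0 (0%), beside 18.9% and 19.2% of all genes. Guca2a, which encodes guanylin, stood at 1.25 (SE 0.31, adjusted p = 0.767), Bcas1 at 1.15 (SE 0.33, adjusted p = 0.767) and Klk1, also on the pancreatic list, at 1.89 (SE 0.66, adjusted p = 0.767), or 0.70 without mutant replicate 1. The 4 negative genes all had overlapping groups. They were Retnlb at -0.18 (SE 1.66), Creb3l4 at -0.07 (SE 0.40), Galnt12 at -0.05 (SE 0.39) and Zg16 at -0.02 (SE 0.19). Tff3 stood at 0.14 (SE 0.19), and Clca1 at 0.56 (SE 0.50), or -0.29 without mutant replicate 1. Galnt12 is on the goblet cell list as well as among the glycosylation genes. The goblet list summed to a deposited signal of 58967.3 and 48914.2 in mutants and 30326.8 and 41165.1 in controls, and its part in the differences of the glycosylation genes was not tested.

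Markers of other cell types are given beside all genes tested, of which 18.9% were higher and 19.2% lower with separate groups. Of the 15 crypt epithelium genes 6 were positive and 9 negative, with both mutants above both controls in 2 (13.3%) and below in 3 (20%), and the median difference was -0.08. The 3 lower ones mark crypt base stem cells. Olfm4 had 10.93 and 11.20 in mutants and 12.52 and 12.33 in controls (difference -1.36, SE 0.24, unadjusted p = 0.000447, adjusted p = 0.767). Lgr5 had 5.51 and 4.67 in mutants and 6.19 and 6.06 in controls (difference -1.04, SE 0.44, adjusted p = 0.786). Ascl2 had 6.15 and 6.47 in mutants and 6.73 and 7.34 in controls (difference -0.73, SE 0.39, adjusted p = 0.799). None of the 3 passed the test, and without mutant replicate 1 they stood at -1.25, -1.41 and -0.55.

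Of the stroma and smooth muscle list, 11 of 12 genes were tested, 9 were positive and 2 negative. Both mutants lay above both controls in 3 (27.3%) and below both in 0, beside 18.9% and 19.2% of all genes. Pdgfra, a receptor of mesenchymal cells, had 8.03 and 9.49 in mutants and 6.53 and 7.93 in controls (difference 1.53, SE 0.60, adjusted p = 0.786). It had the largest difference of the 11, whose median was 0.15. The 2 negative genes were Dcn at -0.44 (SE 0.38) and Vim at -0.14 (SE 0.35), with overlapping groups. The stroma list summed to a deposited signal of 5257.7 and 4401 in mutants and 3034.9 and 5389.4 in controls, so the sums overlapped. The absorptive enterocyte list, with 13 genes tested, had 8 positive and 5 negative. Both mutants lay above both controls in 1 of them (7.69%) and below both in 0. The part of these lists in the differences of the glycosylation genes was not tested.

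**Figure D5:**
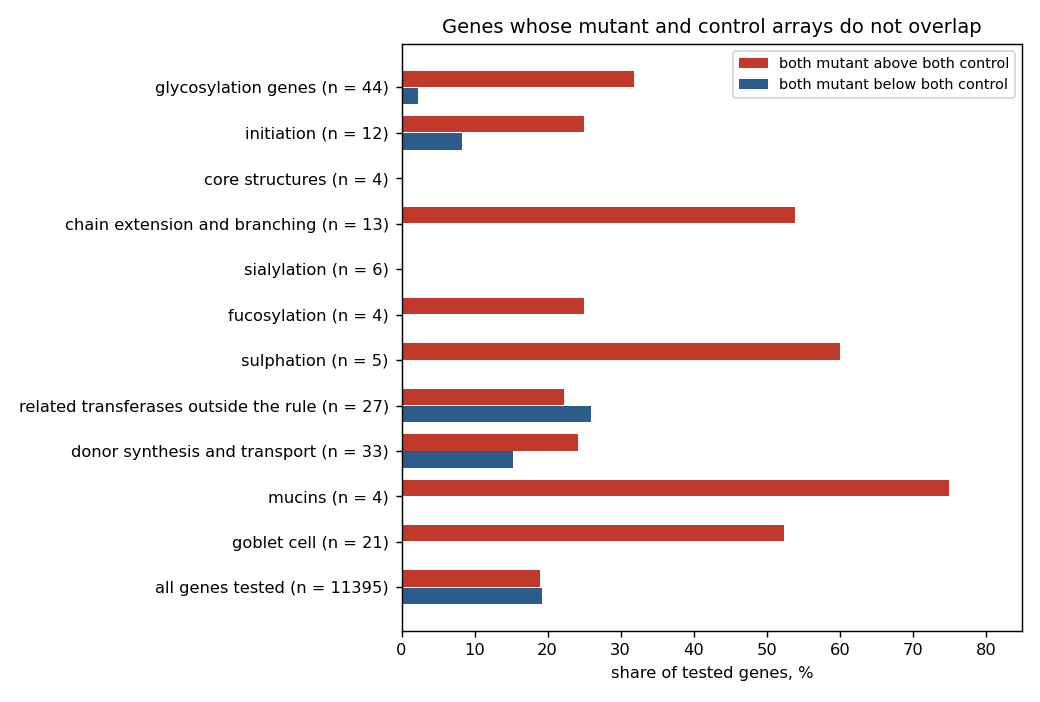
Share of tested genes (horizontal axis, %) with both mutant arrays above both controls (red) and both below (blue), for the glycosylation genes, each step, 4 companion lists and all genes tested, with the number tested in brackets. The glycosylation genes stand at 31.8% and 2.27%, the goblet cell list at 52.4% and 0%, and all genes at 18.9% and 19.2%; several classes hold fewer than 10 genes.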

How the data were processed

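The authors deposited 1 table of MAS5 signal intensities on a linear scale, with the algorithm named per the submitters' processing notes; no scaling target is stated. Of 45101 probe sets, 64 controls were left out. Trimmed means (2%) were 169 and 111 in mutants and 130 and 130 in controls, a ratio of 1.53, so log2(intensity + 5) values were quantile normalized; 5 is the 20th percentile of the deposited values, rounded. Probe sets at or above the median mean signal (4.79) were kept, 22519 for 11395 genes. The comparison used limma 3.58.1 (R 4.3.3), lmFit and eBayes with an intensity trend, no covariate, 2 residual and 6.42 prior degrees of freedom, two-sided, Benjamini-Hochberg adjusted, with a threshold of 0.05. SE values are those of this fit, and the number of arrays limits the precision. The fit was run on simulated arrays with known changes and independent normal noise, and its estimates were checked for bias. No simulated array stood apart as mutant replicate 1 does, so this does not show how often a change would be missed here.

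Every glycosylation gene may be named; full statistics were given to the 3 with the smallest p in each step, a list of anchor genes was named whatever their values, and up to 3 genes of each companion list with the smallest p were named. Some items were singled out after their values were seen. These were further probe sets of a gene, genes under the filter with separate groups, Olfm4, Lgr5, Ascl2, Pdgfra, Dcn, Vim and Muc4. The goblet cell genes Retnlb, Creb3l4, Zg16, Tff3 and Clca1 were singled out in the same way. The members, lists and tests were chosen with earlier results of these data known. Gene symbols are those of the platform annotation; all 73 matched RefSeq by gene identifier, and 0 symbols changed. Another 2 probe sets, each naming several genes, were left out. Alternatives covered scaling, pseudocount, filter, variance model, a replicate block, each array left out, the probe set rule and a 2-fold limit. Upstream sequences come from RefSeq (GRCm38.p6).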

Additional observations from a re-analysis of the deposited data

How the results depend on the processing

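No glycosylation gene passed under any alternative run. Over all probe sets, 0 passed in the reported fit (1415 at an unadjusted p under 0.05), 2 with the values as deposited, 102 with median centring, 1 with a replicate block and 0 to 90 with an array left out. Median centring moved the median of all genes to 0.13 and the share of positive genes to 60.6%, against 50.7% as reported. The glycosylation median ran from 0.12 to 0.34; relative to the median of all genes it was 0.18 higher as reported, 0.21 as deposited and with median centring, 0.11 with a filter at the 75th percentile, and 0.075 (without control replicate 2) to 0.30 (without control replicate 1) with an array left out. Genes with both mutants above both controls numbered 14 as reported, 9 of 44 as deposited (14.9% of all genes), 7 of 24 at the 75th percentile (19.8%), 2 with a 2-fold limit as well (2.56%), and 20 to 25 with an array left out (32% to 38.6%). Those with both below numbered 1 as reported, 2 of 44 as deposited (14.9%), 4 of 73 with no filter (17.8%), 2 of 57 with a filter at the 25th percentile (18.5%), 0 with a 2-fold limit (2.35%), and 3 to 10 with an array left out (33% to 37.1%). With median centring, 13 of 44 were higher (18.7% of all genes) and 1 lower (10.1%, against 19.2% as reported). The mean of all kept probe sets of a gene gave 12 higher and 1 lower.

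The sign turned for 14 named glycosylation genes with an array left out, all with overlapping groups; where groups do not overlap it cannot turn in that way. The ranges were -0.025 to 1.03 for St6gal1, -0.15 to 1.44 for St3gal4, -0.52 to 0.94 for St3gal6, -0.21 to 0.69 for St3gal5, -0.080 to 0.13 for St3gal1, -0.21 to 0.024 for St3gal3, -0.29 to 0.47 for Fut4, -0.997 to 0.52 for Fut2, -0.65 to 0.23 for Galnt3, -0.19 to 0.046 for Galnt4, -0.39 to 0.28 for Galnt12, -0.19 to 0.39 for C1galt1, -0.20 to 0.14 for C1galt1c1 and -1.47 to 1.44 for B3galt5; the lone array of a group is then assumed to vary like the others. Signs also turned as deposited for Galnt4 (0.074), C1galt1c1 (0.11) and St3gal1 (-0.096), with median centring for Galnt4 (0.19), Galnt12 (0.050), C1galt1c1 (0.23) and B3galt5 (0.064), with pseudocounts of 16 and 32 for B3galt5 (0.082 and 0.14), and with the mean of all kept probe sets for Galnt3 (0.042) and Galnt4 (0.026). For Ctnnb1 the difference was -0.20 with median centring and -0.091 with the mean of its kept probe sets.

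The replicate numbers share no label of a common animal, batch or day. The differences between replicates 1 and 2 correlated between the groups at 0.03 over all kept probe sets and 0.27 over the tested glycosylation genes, and with 2 pairs this does not settle whether the numbers pair the samples. The replicate block changed the call of no named gene. The cause of these shifts was not tested.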
